A study of Mus musculus with 283 samples.

Results

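The 6 enzymes described here make serine and pass its carbon into the folate cycle. They are Phgdh, Psat1, Psph, Shmt2, Mthfd2 and Aldh1l2, chosen as a pathway by gene name with earlier results of these data known, and they are 6 of 15224 genes with a probe set annotated to a single symbol. Each has 1 probe set, and none of these is shared with another gene. Levels are log2 array values, and since each gene has its own probes, no level of one enzyme is set against that of another.

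Mouse tumour lines were profiled by exon array as cultures, as tumours grown in mice of the parental strain, and in the draining lymph node and spleen of the same animals. The 283 arrays are 77 tumours of 15 models, 92 nodes, 98 spleens and 16 cultures. The Balb/C females carried 4T1 (breast), CT26 or Renca, and DBA/2J females carried P815. The C57Bl6j males carried TRAMPC1 or TRAMPC2. The C57Bl6j females carried B16F0 ATCC, B16F0 ECACC, B16F10 ATCC, B16F10 NCI, LL2, MC38, EL4, TC1 or PAN02 (pancreas). The lines grew subcutaneously, and PAN02 alone orthotopically; PAN02 has no node arrays. Mice were killed when tumours averaged 200 mm3. The 20 tumour-free mice were Balb/C females, C57Bl6j females, C57Bl6j males and DBA/2J females, 5 of each, each with a node and a spleen. Groups hold 5 animals, except MC38 (8 tumours, 8 spleens and 7 nodes) and PAN02 (4 tumours and 5 spleens). Each line was cultured once. TC1 has no culture array, and Hepa1-6 and ID8 have a culture array alone. The 4 B16 stocks were treated as 1 family and the TRAMPC lines as another (TRAMP-C), which leaves 11 tumour families, 10 with a culture. No ages are given for the animals.

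Serine is made from the glycolytic intermediate 3-phosphoglycerate in a chain of reactions. Phgdh, the dehydrogenase, opens the chain, Psat1, an aminotransferase, adds the amino group, and Psph, a phosphatase, releases serine. In mitochondria Shmt2 splits serine into glycine and a folate-bound carbon, Mthfd2 oxidises that carbon towards formyl-folate, and Aldh1l2 oxidises formyl-folate to carbon dioxide with the formation of NADPH. Formate made on this route feeds purine and thymidylate synthesis in dividing cells, and the transcription factor Atf4, active in amino acid stress, is a known inducer of most of these genes.

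In GRCm38.p6 Phgdh lies on chromosome 3 (98313171 to 98339969), Psat1 on chromosome 19 (15905123 to 15925059) and Psph on chromosome 5 (129765558 to 129787443). Shmt2 (127517123 to 127522444) and Aldh1l2 (83487447 to 83534146) are both on chromosome 10, and Mthfd2 is on chromosome 6 (83305704 to 83326011). Promoter sequence is shown as background, and any link to the expression values was not tested. RefSeq promoter windows, of 250 bases before and 50 after the start, were matched for 5 of the 6 genes; Aldh1l2 was not among them. The starts are those of the RefSeq promoter table. For Phgdh, Psat1 and Shmt2 they fall on the end of the gene given above, while for Psph and Mthfd2 they lie 190 and 8407 bases inside it. The 120 bases before the start are printed 5′ to 3′ on the gene's strand, and capitals mark CCAAT, the letters of the CCAAT box, or its reverse complement ATTGG.
Phgdh, chr3:98339970-98340089, minus strand: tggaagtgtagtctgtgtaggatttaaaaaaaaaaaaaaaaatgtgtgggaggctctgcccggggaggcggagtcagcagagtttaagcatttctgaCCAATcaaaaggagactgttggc
Psat1, chr19:15925060-15925179, minus strand: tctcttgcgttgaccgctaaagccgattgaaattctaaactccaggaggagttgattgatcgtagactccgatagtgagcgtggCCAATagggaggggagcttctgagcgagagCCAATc
Psph, chr5:129787254-129787373, minus strand: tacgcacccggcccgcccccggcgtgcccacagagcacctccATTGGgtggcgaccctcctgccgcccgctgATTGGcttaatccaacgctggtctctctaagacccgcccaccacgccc
Mthfd2, chr6:83317605-83317724, minus strand: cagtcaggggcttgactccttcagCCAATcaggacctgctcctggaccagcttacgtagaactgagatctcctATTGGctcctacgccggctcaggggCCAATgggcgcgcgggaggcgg
Shmt2, chr10:127522445-127522564, minus strand: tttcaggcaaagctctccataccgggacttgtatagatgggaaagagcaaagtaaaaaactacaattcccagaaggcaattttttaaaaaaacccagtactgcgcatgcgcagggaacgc
CCAAT was searched on both strands of the 300 bases and was found in 4 of the 5 genes, and in 37.4% of all 32851 windows. It lay at -23 and -193 from the start in Phgdh, at -36, -6 and 24 in Psat1, at -78 and -48 in Psph, and at -96, -47 and -22 in Mthfd2. The window of Shmt2 held none, and neither did a second Psat1 window. The letters TGATGNAA, used for an amino acid response element, and CACGTG, an E-box, were likewise searched on both strands and were in none of these windows, against 3.97% and 7.15% of all windows. A match describes letters and not a bound site, and no match says only that these letters are not in the window.

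The labels were checked against marker genes. The 4 B16 stocks carried the melanocyte genes at a mean of 10.41 to 10.64 in tumours and 10.42 to 10.72 in cultures. The mast cell genes averaged 7.16 in P815 tumours and 7.42 in the P815 culture, and the T cell genes averaged 7.52 in EL4 tumours and 7.65 in the EL4 culture. Of the melanocyte genes, Dct ran from 3.71 to 7.02 and Tyr from 3.04 to 4.73 in P815 tumours. The P815 culture had 3.98 and 3.37. Among the nodes, 8 of 92 went against their label: their B cell genes averaged 4.20 to 6.52, against 7.94 to 9.14 in the other nodes. Of these, 6 came from tumour-bearing mice (4T1 mouse 36, CT26 mice 28 and 29, Renca mice 21, 22 and 24). Each of the 6 correlated more closely over all genes with its own model's tumours (r = 0.967 to 0.984) than with tumour-free nodes (r = 0.869 to 0.884). The other two were the nodes of tumour-free C57Bl6j female 5 and DBA/2J female 5, whose adipocyte genes averaged 8.60 and 10.06. The node of EL4 mouse 14 had a B cell mean of 8.17 but was also slightly nearer to its tumours (r = 0.956 against 0.950). No spleen of 78 lay nearer to the tumours and no tumour of 77 lay nearer to tumour-free spleens. Among PAN02 tumours, the pancreatic acinar genes averaged 5.26, 9.48, 11.81 and 4.86 in mice 1, 3, 4 and 6. Array medians ran from 5.19 to 5.66. The sample numbers of tumour-free mice and cultures all follow those of tumour-bearing mice, and any effect of run order cannot be told apart from these groups. In bulk tissue, fewer cells of a type and less RNA per cell cannot be told apart.

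The first comparison asks how the enzymes differ between a tumour and the culture it was grown from. All 6 were lower in tumours. Psat1 fell by 2.12 ± 0.23 on the log2 scale (SE over 10 families, limma, adjusted p = 3.98e-06). Shmt2 fell by 1.69 ± 0.18 (limma, adjusted p = 3.34e-06), Phgdh fell by 1.66 ± 0.21 (2.01e-05) and Psph fell by 1.58 ± 0.14 (9.25e-07). Mthfd2 fell by 1.32 ± 0.19 (limma, adjusted p = 4.39e-05) and Aldh1l2 fell by 1.14 ± 0.25 (0.00189). A gene is called here, as throughout, when its Benjamini-Hochberg adjusted p over all genes tested is under 0.05 and its log2 difference is at least 1. By this rule 11.3% of the 13863 genes tested were called lower, and the median of all genes was -0.26, against -1.62 for the 6 enzymes.

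The size of these falls rests on the scaling. When all arrays were forced to 1 distribution by quantile normalisation, all 6 enzymes stayed below culture at adjusted p under 0.05, as 20.4% of genes did, but only Psat1 kept a difference of at least 1. Psat1 was then at -1.43 (limma, adjusted p = 0.000424), Phgdh at -0.95 (0.00218), Shmt2 at -0.92 (0.000916), Psph at -0.82 (0.000845), Aldh1l2 at -0.72 (0.0136) and Mthfd2 at -0.56 (0.0247). Under that scaling 0.483% of genes were called lower and the median of all genes was -0.02. Of the genes called in either direction, 15.3% were higher in tumours as deposited, 29.1% with array medians subtracted and 84.2% after quantile normalisation. With medians subtracted Aldh1l2 stood at -0.98.

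Line by line, Psat1, Psph, Shmt2 and Mthfd2 had every tumour below its own culture in all 14 lines. Phgdh did so in 13 lines and Aldh1l2 in 12. Every tumour lay below its culture in all 14 lines for 12.9% of genes. The mean of the tumours was below culture in all 14 lines for 5 of the 6 enzymes, all but Aldh1l2, and for 26.0% of genes.

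**Figure D1:**
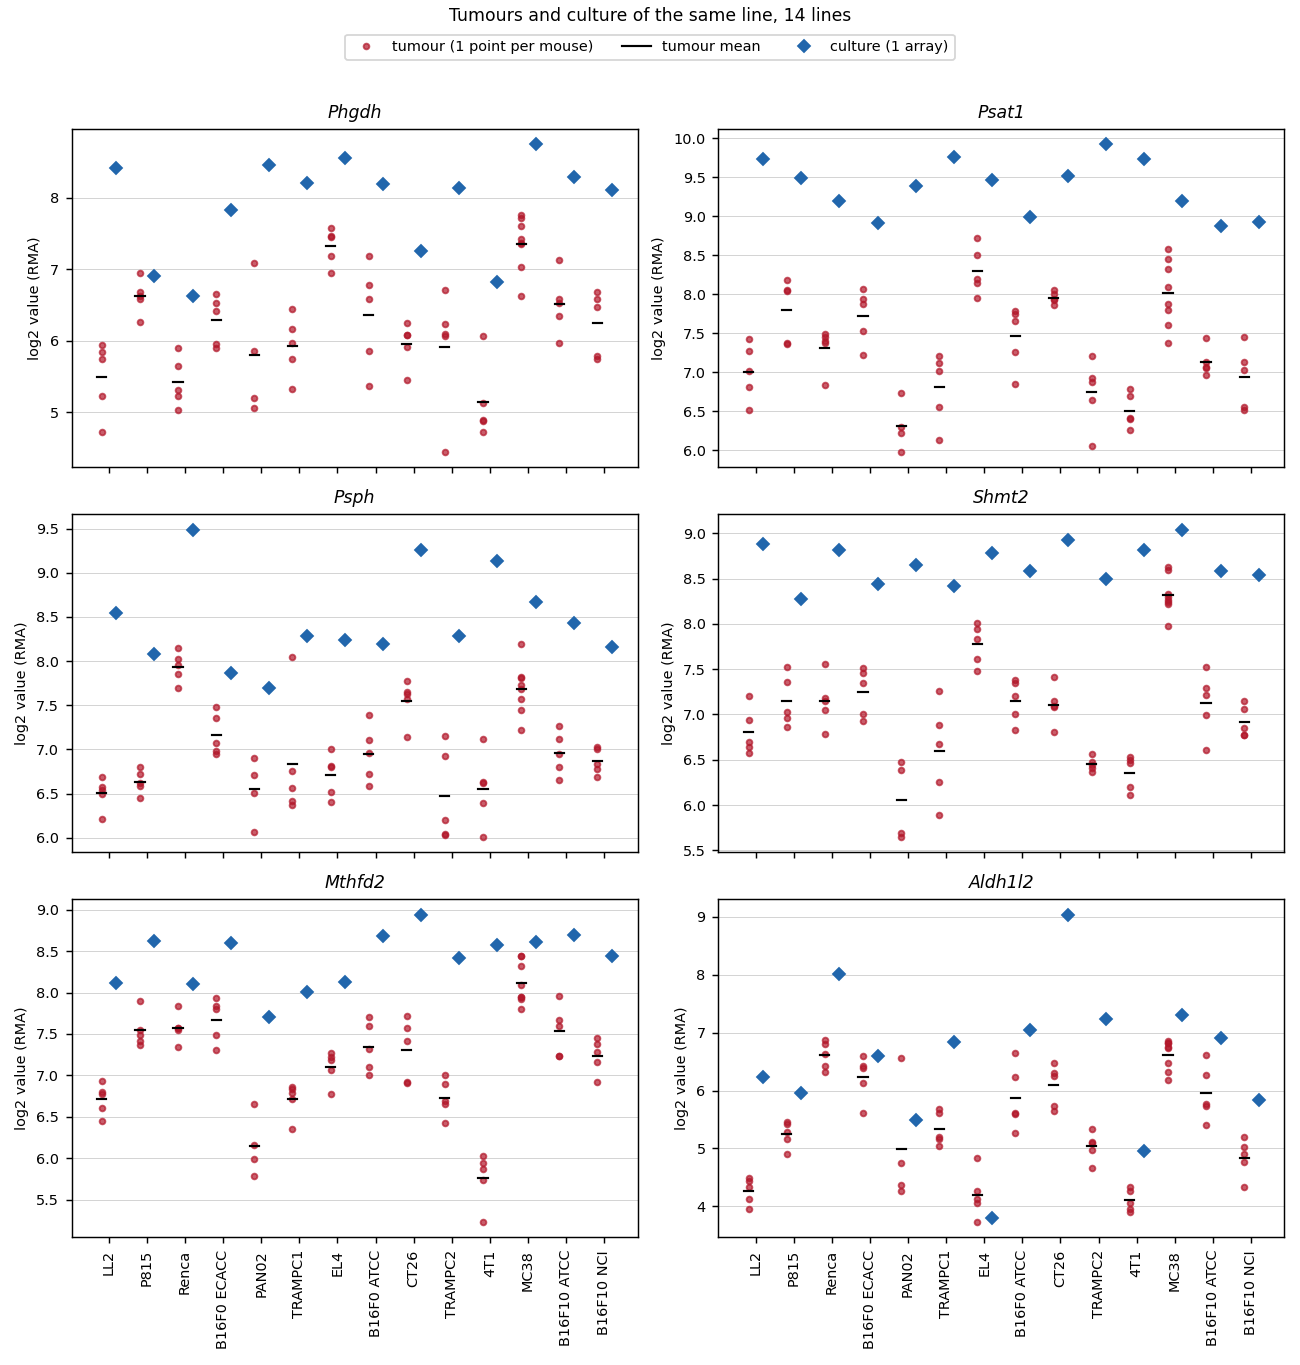
Log2 values of the 6 enzymes for each of the 14 lines with a culture, with tumours as points and the single culture array beside them. Tumours of Psat1, Psph, Shmt2 and Mthfd2 lie below the culture in all 14 lines, and Aldh1l2 in EL4 is the one line mean above its culture. That culture value is under 4.3, the level used to leave out low genes.

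Psat1 differed most in 4T1, where the tumours had 6.69, 6.78, 6.41, 6.40 and 6.26, against 9.74 in the culture. It differed least in EL4, where the tumours had 7.95, 8.19, 8.50, 8.72 and 8.14, against 9.47 in the culture. Even in EL4 the highest tumour was below the culture. Phgdh, the first enzyme of the chain, was 2.91 lower on the log2 scale in LL2 tumours (5.94, 4.72, 5.74, 5.85 and 5.23) than in the LL2 culture (8.41). In P815 the tumours had 6.63, 6.58, 6.68, 6.95 and 6.26, against 6.91 in the culture. Here 1 of 5 tumours was above the culture, and the P815 culture was itself among the lowest for Phgdh.

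Shmt2, which releases the one-carbon unit, ran from a difference of -2.60 in PAN02 (tumours 6.39, 5.65, 6.48 and 5.69, culture 8.65) to -0.72 in MC38 (tumours 7.98 to 8.63 with a median of 8.28, culture 9.04). Mthfd2, the next enzyme, ran from -2.81 in 4T1 (tumours 5.87, 5.94, 5.23, 5.74 and 6.03, culture 8.57) to -0.49 in MC38 (tumours 7.80 to 8.44, culture 8.61). MC38 thus had the smallest difference for Shmt2 and Mthfd2, and its tumours and culture still did not overlap. Psph ran from -2.58 in 4T1 to -0.70 in B16F0 ECACC.

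Aldh1l2 varied most between lines. CT26 tumours had 5.65, 6.26, 6.48, 5.74 and 6.31, against 9.04 in the CT26 culture. EL4 tumours had 4.26, 4.84, 4.12, 4.06 and 3.73, against 3.80 in the EL4 culture, so that 4 of 5 tumours were above it. The EL4 culture was under 4.3, the level used to leave out low genes, and only 1 of 5 EL4 tumours was above 4.3. The order of EL4 tumours and culture therefore says little. Of the 4T1 and LL2 tumours, 1 of 5 and 3 of 5 were above 4.3, so low values limit those differences too. The PAN02 tumours had 4.26, 4.75, 6.57 and 4.37, against 5.49 in the culture, and the one tumour above the culture was mouse 4, the array with the highest acinar mean. Without CT26 the fall of Aldh1l2 was 0.94 on the log2 scale, below the fold threshold.

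Other genes of the pathway were counted from lists, to be read against 11.3% of all genes called lower and a median of -0.26. Of 14 folate and glycine genes tested, 5 fell and none rose (median -0.64), among them Mthfd1 (-1.33 ± 0.11, limma adjusted p = 5.15e-07), the cytosolic folate enzyme, Sfxn1 (-1.32 ± 0.10), the mitochondrial serine carrier, and Shmt1 (-1.09 ± 0.11), the cytosolic counterpart of Shmt2. Aldh1l1, the cytosolic counterpart of Aldh1l2, did not pass (0.25 ± 0.13, limma adjusted p = 0.121). Of 9 purine synthesis genes 7 fell (median -1.21), led by Prps2 (-1.73 ± 0.14), and of 8 methionine cycle genes 3 fell (median -0.76), led by Ahcy (-1.85 ± 0.18). None of 10 genes of serine use and breakdown passed (median -0.44), nor any of 3 lower glycolysis genes (median -0.61). Of 13 Atf4 targets 7 fell (median -1.11), with Slc7a11, the cystine transporter, at -2.45 ± 0.24 and Atf4 itself at -1.92 ± 0.18. These list counts shrank to 0 for folate and purine genes, 1 for methionine and 2 for Atf4 targets after quantile normalisation, with 0.483% of all genes.

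Dividing-cell genes and markers of other cells moved in the same comparison. Of 14 proliferation genes 10 fell (median -1.31), with Cdk1, the mitotic kinase, at -2.03 ± 0.17 and Plk1 at -1.72 ± 0.20, while Mki67 stood at -0.23 ± 0.13 (limma, adjusted p = 0.161). After quantile normalisation 1 of the 14 was called lower, with 0.483% of all genes. The proliferation mean was lower in tumours of all 14 lines, by -1.94 to -0.26. Of 10 macrophage genes 9 rose (median 2.98), of 8 fibroblast genes 5 (median 1.26), of 5 endothelial genes 4 (median 1.86) and of 5 skeletal muscle genes 3 (median 1.06), against 2.04% of all genes called higher. The macrophage mean ran from 5.08 to 8.42 in tumours and 4.03 to 4.97 in cultures. Their part in the fall of the enzymes was not tested.

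Across the 16 cultures, each a single array with no test, Phgdh ran from 6.62 in Renca to 9.05 in Hepa1-6 and Aldh1l2 from 3.80 in EL4 to 9.04 in CT26. Psat1 (8.88 to 9.92), Shmt2 (8.22 to 9.04) and Mthfd2 (7.67 to 8.94) varied less, and Psph ran from 7.70 to 9.49. One pattern was noticed after the values were seen. The 3 lines of Balb/C origin had Phgdh at 6.62 (Renca), 7.26 (CT26) and 6.82 (4T1), all below the 12 lines labelled C57Bl6j (7.83 to 9.05). Their Psph was the reverse, at 9.49, 9.26 and 9.13, all above the C57Bl6j lines (7.70 to 8.67). Such a separation was seen in 0.671% of genes with the Balb/C lines below and in 0.563% with them above, and the lines also differ in tissue of origin. P815, from DBA/2J, had Phgdh at 6.91 and Psph at 8.08. The 12 lines include the B16 stocks and the TRAMPC lines, which share origins. Tumour means did not keep the full separation. Phgdh was still below every C57Bl6j model in Renca (5.43) and 4T1 (5.14), but CT26 (5.95) lay above LL2 (5.50). Psph was still above every C57Bl6j model in Renca (7.94), but CT26 (7.55) and 4T1 (6.55) lay below MC38 (7.685).

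Among the tumours, the enzymes differed between models. All 6 passed the F test over the 15 models (limma, adjusted p = 6.87e-11 for Phgdh, 4.42e-15 for Psat1, 2.67e-12 for Psph, 2.73e-20 for Shmt2, 8.19e-23 for Mthfd2 and 1.06e-21 for Aldh1l2). The background is high, since 52.8% of genes passed too, and the range of model means was 2.22, 1.99, 1.47, 2.27, 2.35 and 2.51 in the same order of genes. In the ranking of models by mean, neighbours overlapped for every gene, in 14 of 14 pairs each. Neighbours in a ranking of 15 means lie close by construction, so this overlap says little about the enzymes.

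**Figure D2:**
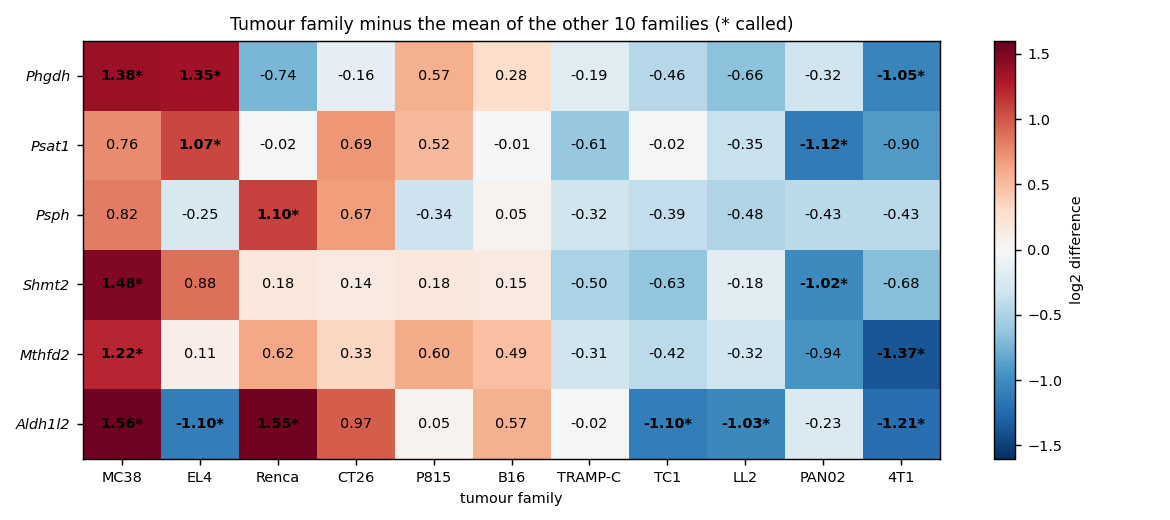
Heat map of the log2 difference between each tumour family (columns) and the other 10 families on average, given for each of the 6 enzymes (down the page) and printed in each cell, with red higher, blue lower and an asterisk for a called difference. MC38 holds the highest difference for Phgdh (1.38), Shmt2 (1.48), Mthfd2 (1.22) and Aldh1l2 (1.56), and 4T1 the lowest for Phgdh (-1.05), Mthfd2 (-1.37) and Aldh1l2 (-1.21).

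MC38 tumours had the highest model mean for 4 of the enzymes. Phgdh averaged 7.36 ± 0.37 (SD, n = 8), ranging from 6.63 to 7.75 with a median of 7.39, and lay 1.38 ± 0.18 above the mean of the other families (limma, adjusted p = 3.78e-09). Shmt2 averaged 8.32 ± 0.21 and lay 1.48 ± 0.11 above (limma, adjusted p = 4.34e-19). Mthfd2 averaged 8.11 ± 0.25 and lay 1.22 ± 0.10 above (6.94e-17), and Aldh1l2 averaged 6.62 ± 0.26 and lay 1.56 ± 0.15 above (3.76e-14). In the same contrast 2.45% of genes were called higher. Under quantile normalisation Mthfd2 lay 0.99 above.

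EL4 tumours, a lymphoma line, were high in Phgdh and Psat1 and low in Aldh1l2, while Psph (-0.25) was not called. Phgdh had 7.45, 7.46, 6.95, 7.57 and 7.18 and lay 1.35 ± 0.23 above the other families (limma, adjusted p = 1.43e-06). Psat1 averaged 8.30 ± 0.31 (SD, n = 5) and lay 1.07 ± 0.16 above (5.81e-08), and 0.96 above without EL4 tumour 17 or 0.97 without the PAN02 tumours. Aldh1l2 averaged 4.20 ± 0.41 and differed by -1.10 ± 0.18 (limma, adjusted p = 7.95e-07), and by -0.99 without EL4 tumour 18. In EL4 2.79% of genes were called higher and 4.12% lower.

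Renca tumours, a kidney line, were high in Psph (7.70, 8.15, 7.96, 8.02 and 7.85), 1.10 ± 0.15 above the other families (limma, adjusted p = 9.71e-09). They were also high in Aldh1l2 (6.88, 6.63, 6.42, 6.32 and 6.80), 1.55 ± 0.18 above (1.21e-10), where 2.87% of genes were called higher. Their Phgdh was low, at 5.90, 5.65, 5.31, 5.23 and 5.04, but did not pass the rule.

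4T1 tumours were low in Mthfd2 (-1.37 ± 0.12, limma adjusted p = 7.70e-15), Aldh1l2 (-1.21 ± 0.18, 2.36e-07) and Phgdh (-1.05 ± 0.23, 0.000216), where 1.35% of genes were called lower. The 4T1 Phgdh values were 4.88, 5.13, 6.07, 4.90 and 4.72, with mouse 34 apart, and the call was lost without any one of mice 32, 35 and 36 (-0.99, -0.99 and -0.95) and under both other scalings (-0.97 and -0.90). PAN02 tumours were low in Psat1 (-1.12 ± 0.17, 5.15e-07) and Shmt2 (-1.02 ± 0.15, 5.91e-08), against 2.46% of genes called lower. Both missed the fold threshold under quantile normalisation (-0.91 and -0.88), and Shmt2 did so without mouse 3 (-0.89) or mouse 6 (-0.90). The skeletal muscle genes averaged 10.2 in PAN02 mouse 6, against 4.90 to 5.46 in the other 3 tumours. Pancreatic acinar genes averaged 9.48 in mouse 3 and 11.81 in mouse 4. The part of such tissue in the PAN02 values was not tested. In PAN02 mouse 4 Phgdh was 7.09 and Aldh1l2 6.57, above the other 3 tumours (5.06 to 5.86 and 4.26 to 4.75).

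Aldh1l2 was also low in LL2 (-1.03 ± 0.18, limma adjusted p = 7.84e-06, with 1.29% of genes called lower) and in TC1 (-1.10 ± 0.18, 1.27e-06, with 1.23%). The LL2 values were 4.44, 3.95, 4.13, 4.33 and 4.49, and its call was lost without LL2 tumour 14 (-0.95), LL2 tumour 16 (-0.996) or PAN02 tumour 4 (-0.98) and under quantile normalisation (-0.95). The TC1 values were 4.03, 4.27, 4.43, 4.28 and 4.00. In the families low in Aldh1l2, 1 of 5 EL4 tumours, 1 of 5 4T1 tumours, 3 of 5 LL2 tumours and 1 of 5 TC1 tumours were above 4.3, the level used to leave out low genes. No member was called in B16, CT26, P815 or TRAMP-C, where 5.24% of gene and family combinations were called.

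Related lines differed for 1 enzyme. Aldh1l2 had 4.90, 5.19, 5.02, 4.33 and 4.76 in B16F10 NCI tumours and 6.61, 5.40, 6.27, 5.76 and 5.73 in B16F10 ATCC tumours. The difference was -1.12 ± 0.25 (limma, adjusted p = 0.0138), with 0.0436% of genes called lower. The cultures ran the same way, at 5.84 in B16F10 NCI and 6.90 in B16F10 ATCC. The call was lost without B16F10 ATCC tumour 11 (-0.95) or B16F10 NCI tumour 5 (-0.99). In the other related pairs, no enzyme was called, against 0.177% of gene and pair combinations.

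Some enzymes kept step with each other across models. Over the 15 tumour model means, r was 0.85 for Psat1 with Shmt2 and for Psph with Aldh1l2, 0.83 for Shmt2 with Mthfd2 and 0.80 for Phgdh with Shmt2, but 0.19 for Phgdh with Psph. Within models, over the 77 tumours, the same pairs gave 0.08, 0.15, 0.14, 0.39 and 0.21, and over the 16 cultures 0.14, 0.49, 0.29, -0.10 and -0.60. Over all 15 pairs r within models ran from 0.05 (Psph with Mthfd2) to 0.45 (Psat1 with Mthfd2). These are descriptions of arrays that share a scaling and, for tumours, host cells. The mean of the 6 enzymes over 11 families had r = 0.95 with the Atf4 target mean (0.88 without 4T1 and MC38) and 0.67 with the proliferation mean (0.72 without PAN02 and TRAMP-C). It had -0.28 with the macrophage mean (0.07 without B16 and MC38) and -0.52 with the fibroblast mean (-0.67 without B16 and TRAMP-C).

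The genes most like the mean of the 6 enzymes over the 15 tumour model means were Nudt1 (0.91), Polr3k (0.89), Chek2 (0.88), Asns (0.88), the asparagine synthetase, and Mybl2 (0.88). Over the 16 cultures they were Pcdhb22 (0.87), Cntnap4 (0.83), Kif1b (0.82), Tmem200a (0.81) and Hspa5 (0.80). Each enzyme was centred but not scaled for this mean. Aldh1l2, with the widest range over cultures (3.80 to 9.04), thus weighs most in it there. Over the 77 single tumours, Asns was among the nearest genes of Psat1 (0.79) and Mthfd2 (0.82), and the tRNA synthetases Tars and Sars were nearest to Psph (0.72) and Mthfd2 (0.82). Phgdh was nearest to Dnajc2 (0.75), Shmt2 to Mybl2 (0.83) and Aldh1l2 to Mthfd2 (0.73).

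Compared with the spleens of the same mice, Psat1, Phgdh and Shmt2 were higher in tumours. Psat1 had a median of 7.37 (5.98 to 8.72) in 77 tumours and 5.63 (4.11 to 6.66) in 78 spleens, a difference of 1.77 ± 0.07 (limma, adjusted p = 1.33e-61). This SE and p rest on the spread of mice within groups and not on the spread among families. Phgdh lay 1.17 ± 0.08 higher in tumours (limma, adjusted p = 2.38e-35) and Shmt2 1.13 ± 0.06 (8.55e-50), where 4.95% of genes were called higher. Mthfd2 (0.74 ± 0.06) and Psph (0.54 ± 0.05) were below the fold threshold. Aldh1l2 had a median of 5.29 (3.73 to 6.88) in tumours and 3.93 (3.32 to 4.48) in spleens. Only 4 of 78 spleens were above 4.3, the level used to leave out low genes, against 62 of 77 tumours, so Aldh1l2 entered the comparison through the tumours and its difference of 1.27 is given with no test. The ranges of tumours and spleens overlapped for every enzyme. Of all genes called, 58.5% were higher in tumours as deposited, 51.4% with medians subtracted and 43.0% after quantile normalisation, when Shmt2 stood at 0.94.

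Compared with the draining nodes, Psat1 (1.31 ± 0.08, limma adjusted p = 5.97e-41) and Shmt2 (1.05 ± 0.06, 2.99e-43) were higher in tumours, with 3.71% of genes called higher. Without the 8 B-cell-poor nodes the differences were 1.54 and 1.23, with 5.41% of genes called higher. Phgdh (0.92), Mthfd2 (0.75) and Psph (0.44) were below the fold threshold with all nodes. Aldh1l2 was above 4.3 in 10 of the 72 draining nodes, 6 of them B-cell-poor, and its difference of 1.08 (1.34 without the B-cell-poor nodes) is again given with no test. Of all genes called, 54.8% were higher in tumours as deposited, 46.9% with medians subtracted and 40.0% after quantile normalisation. Shmt2 was below the fold threshold with medians subtracted (0.97) and after quantile normalisation (0.87).

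**Figure D3:**
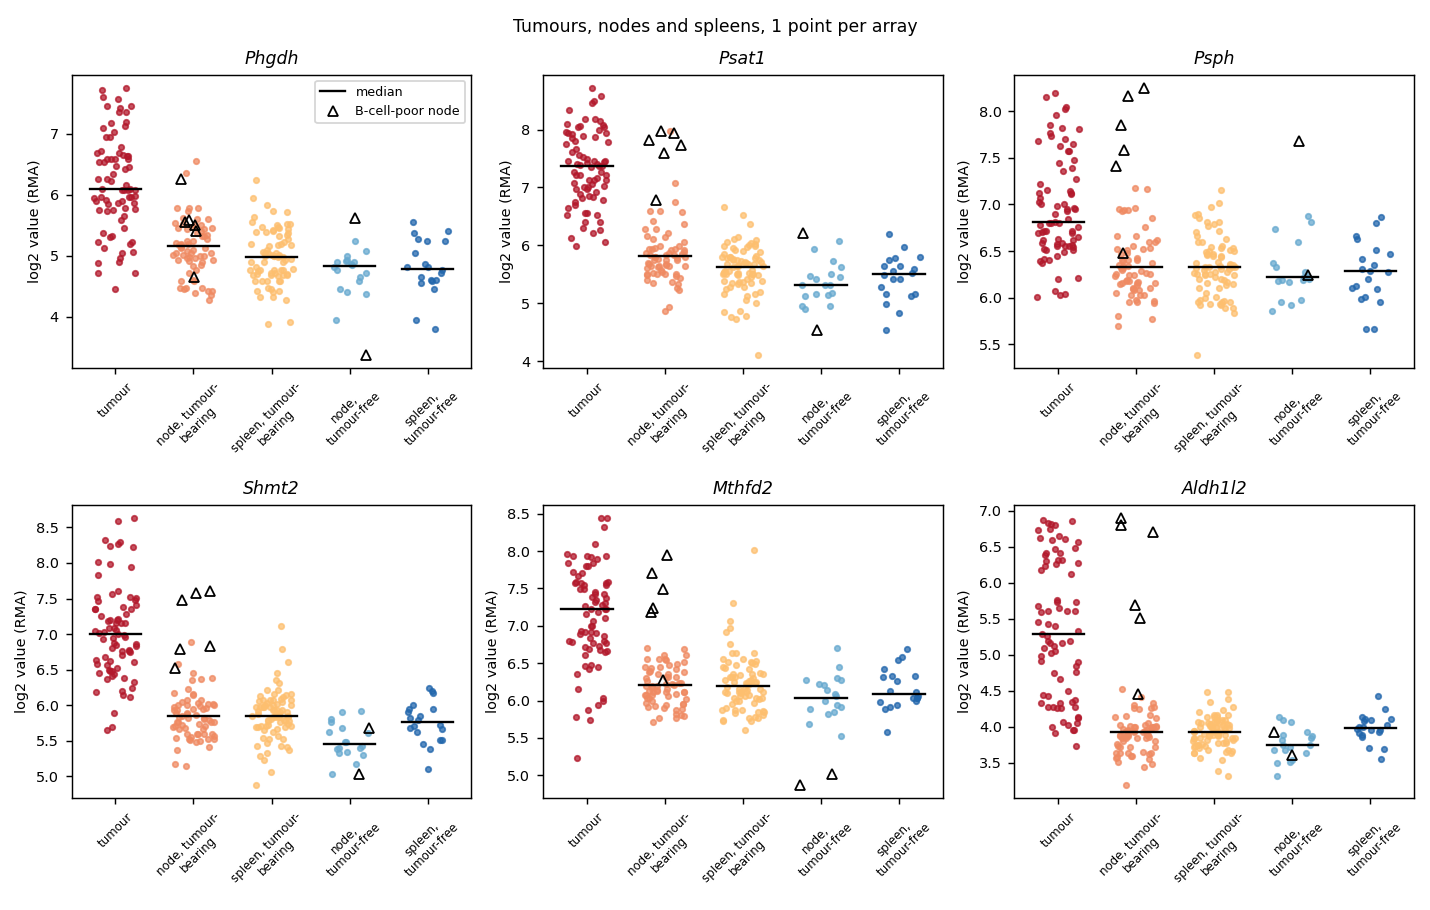
Log2 values of the 6 enzymes in tumours, nodes and spleens of tumour-bearing and of tumour-free mice, with each array a point, the median a line and B-cell-poor nodes as open triangles. Psat1 has a median of 7.37 in tumours and 5.63 in spleens of tumour-bearing mice.

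Nodes and spleens of tumour-free mice were compared next. No enzyme was called between nodes and spleens, against 1.26% of genes, and the nearest was Shmt2 at -0.27 ± 0.10 (limma, adjusted p = 0.0492). Over 36 combinations of enzyme and host contrast the differences ran from -0.59 to 0.64 with 0 called, against 1.05% of combinations in nodes and 1.26% in spleens. At such low shares, the lack of a call between organs or hosts says little about these enzymes. Aldh1l2 is counted here, though it was above 4.3 in only 0 of 20 tumour-free nodes and 1 of 20 tumour-free spleens.

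Draining nodes of tumour-bearing mice were then compared with nodes of tumour-free mice of the same strain and sex. Averaged over the 10 families no enzyme reached a log2 difference of 1, against 0.453% of genes called. Psat1 lay 0.89 ± 0.15 higher (limma, adjusted p = 6.93e-06), Phgdh 0.61 ± 0.12 (8.69e-05), Shmt2 0.60 ± 0.11 (5.16e-05) and Mthfd2 0.50 ± 0.11 (0.000397), as did 13.2% of genes at adjusted p under 0.05 with no fold threshold. Without the B-cell-poor nodes these were 0.59, 0.47, 0.45 and 0.25, each still at adjusted p under 0.05, with 6.23% of genes higher on that rule and 0.165% called on the full one. Psph (0.25) and Aldh1l2 (0.38) did not pass with all nodes, and Aldh1l2 was above 4.3 in 10 of 72 draining and 0 of 20 tumour-free nodes. Of all genes called, 85.2% were higher as deposited, 79.7% with medians subtracted and 71.2% after quantile normalisation. Families of 1 host share their tumour-free controls, so these effects are not independent of each other. Among 14 proliferation genes 4 rose in the nodes (median 0.70), and their part in the enzyme values was not tested.

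**Figure D4:**
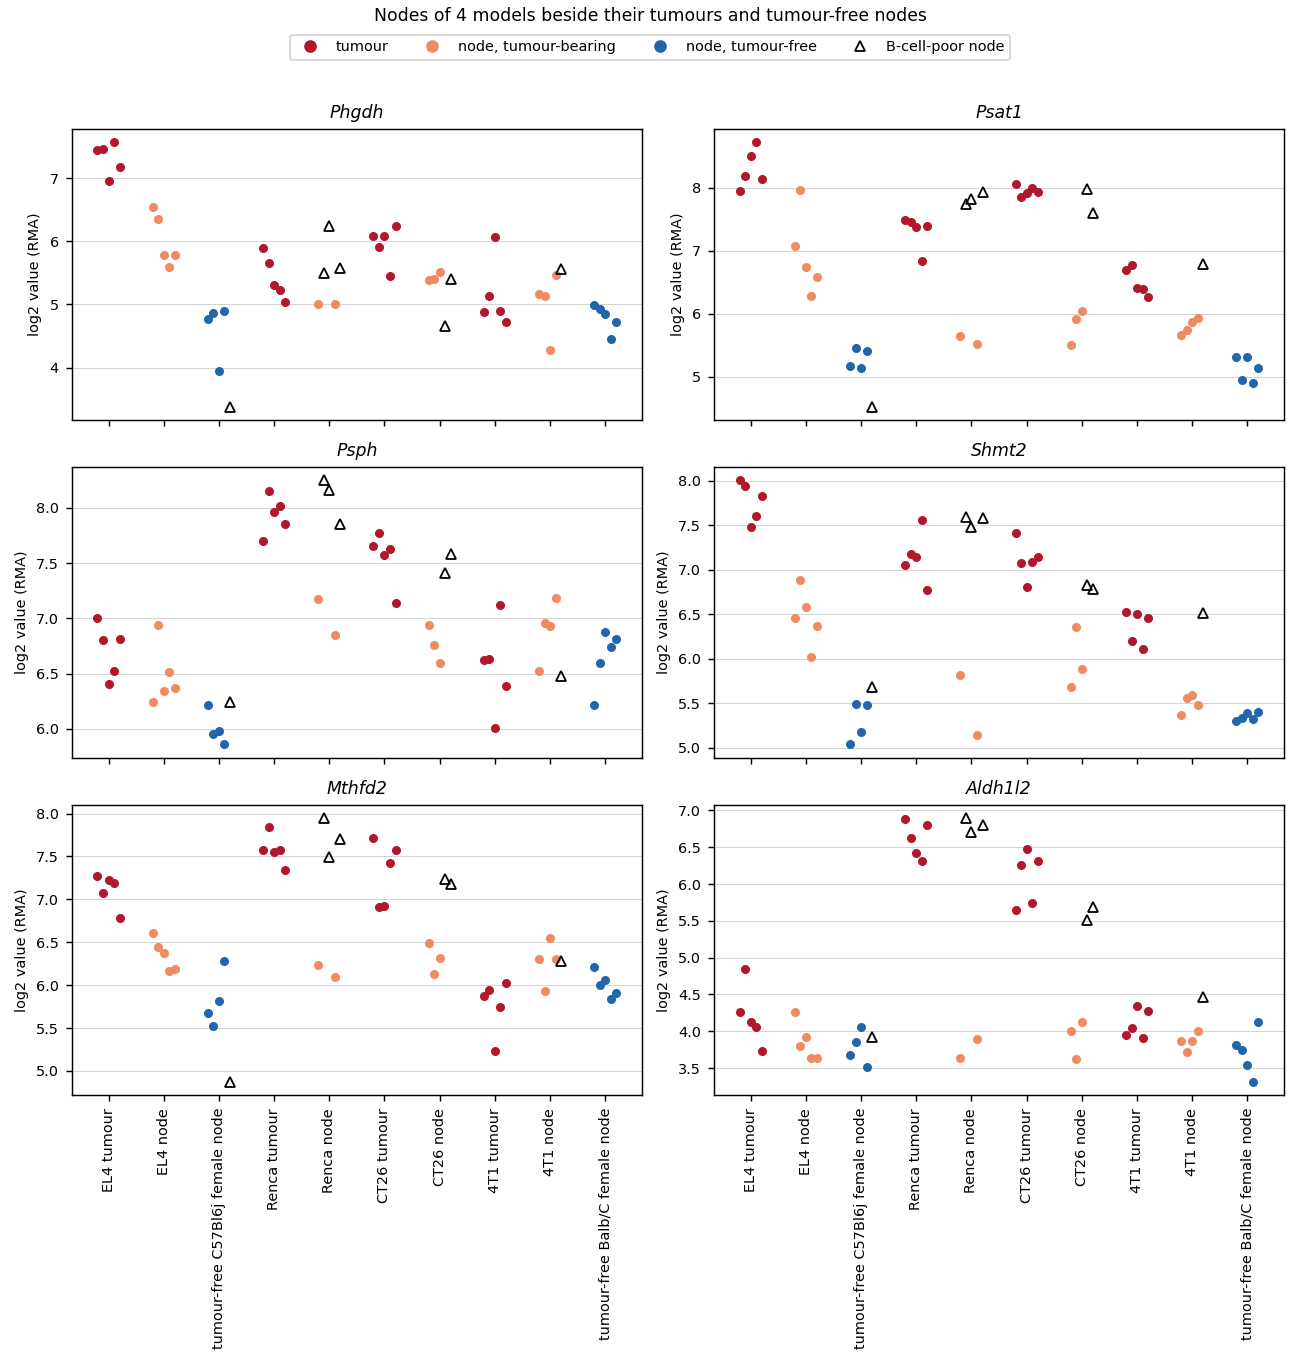
Log2 values of the 6 enzymes in tumours, draining nodes and tumour-free nodes of EL4, Renca, CT26 and 4T1 mice, with each array a point and B-cell-poor nodes as open triangles. The Renca and CT26 nodes that reach the level of the tumours for Aldh1l2 are the open triangles, while the EL4 nodes with a high Psat1 are filled points.

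EL4 nodes held the one family difference that did not rest on B-cell-poor nodes. Psat1 had 7.08, 7.97, 6.75, 6.29 and 6.59 in EL4 nodes, against 5.17, 5.46, 5.15, 5.41 and 4.53 in tumour-free C57Bl6j female nodes. Phgdh had 6.55, 6.35, 5.79, 5.60 and 5.79 in EL4 nodes, against 4.77, 4.87, 3.94, 4.89 and 3.38 in the tumour-free nodes. Shmt2 had 6.46, 6.89, 6.58, 6.02 and 6.37 in EL4 nodes, against 5.04, 5.49, 5.18, 5.48 and 5.68 in the tumour-free nodes. All EL4 nodes were above all tumour-free nodes for the 3 genes, and for 4.70% of all genes. The 3 genes are those called in EL4 nodes from these same values, so their separation adds no separate evidence. For Phgdh, 2 of the 5 tumour-free nodes were under 4.3.

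The EL4 effects were 1.80 for Psat1, 1.65 for Phgdh and 1.09 for Shmt2, with 1.90% of genes called higher. Without the B-cell-poor nodes, which here removes tumour-free node 5, they were 1.64, 1.40 and 1.17, with 1.25% of genes called higher, and without EL4 node 14 as well they were 1.38, 1.32 and 1.06. With all other nodes kept, leaving out EL4 node 14 put Shmt2 at 0.98. Timd2, which was high in EL4 tumours (8.41 to 9.01), was 4.80 to 7.80 in EL4 nodes and 3.48 to 4.15 in tumour-free nodes of that host. The proliferation mean was 6.80 to 7.57 in EL4 nodes and 5.32 to 6.73 in the tumour-free nodes. The part of either in the enzyme values was not tested.

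Renca nodes comprised arrays with and without B cell genes. Aldh1l2 had 6.90, 6.71 and 6.80 in mice 21, 22 and 24 and 3.64 and 3.90 in mice 19 and 23, against 3.81, 3.75, 3.54, 3.31 and 4.13 in tumour-free Balb/C nodes. Psat1 had 7.74, 7.82 and 7.94 in the first 3 mice and 5.65 and 5.52 in the other two, against 4.90 to 5.32 in tumour-free nodes. The 3 arrays lay within or above the range of Renca tumours, and the other two near or slightly above the tumour-free nodes.

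Over all Renca nodes 4 enzymes were called higher besides Aldh1l2: Psat1 (1.81), Shmt2 (1.37), Mthfd2 (1.09) and Psph (1.01), with 6.64% of genes. Without the B-cell-poor arrays they stood at 0.46, 0.13, 0.15 and 0.36 and none was called, with 0.188% of genes. Aldh1l2 was above 4.3 in the 3 B-cell-poor Renca nodes and in none of the other Renca or tumour-free Balb/C nodes, and its difference of 1.88 (0.06 without the B-cell-poor arrays) is given with no test. The calls of Psph and Mthfd2 were lost without any one of nodes 21, 22 and 24 (0.86, 0.88 and 0.96 for Psph, 0.87, 0.99 and 0.94 for Mthfd2), and that of Psph also without tumour-free Balb/C node 6 (0.99) or 10 (0.90). Mme, high in Renca tumours (9.33 to 10.04), was 10.08, 10.12 and 10.37 in the 3 nodes and 5.30 to 6.43 in tumour-free Balb/C nodes. In CT26, Psat1 had 5.51, 5.92, 6.05, 7.98 and 7.60 in mice 25 to 29, a difference of 1.49 over all nodes with 2.11% of genes called higher. Without the B-cell-poor nodes it was 0.70 (limma, adjusted p = 0.127), with 0.436% of genes. In the other 7 families no enzyme was called, against 0.590% of gene and family combinations, and their effects ran from -0.164 to 0.885.

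Spleens of tumour-bearing mice showed no called enzyme. The mean effects were 0.21 ± 0.09 for Shmt2, 0.18 ± 0.08 for Psph, 0.15 ± 0.11 for Psat1, 0.14 ± 0.10 for Mthfd2, 0.11 ± 0.12 for Phgdh and -0.01 ± 0.07 for Aldh1l2 (limma, adjusted p = 0.167 to 0.975). By comparison, 0.231% of genes were called and 4.13% were higher at adjusted p under 0.05 with no fold threshold. For Aldh1l2, only 4 of 78 spleens of tumour-bearing mice and 1 of 20 of tumour-free mice were above 4.3. Its lack of an effect in spleens, here and by family, therefore says little. Over 66 combinations of enzyme and family the effects ran from -0.49 to 0.69 with 0 called, against 1.08% of combinations. EL4 spleens gave the highest, for Shmt2 (0.69, limma adjusted p = 0.00511). Averaged over the 11 families, 5 of 7 erythroid precursor genes rose in spleens (median 1.29), and their part in the enzyme values was not tested.

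One spleen stood apart. In LL2 mouse 18 Mthfd2 was 8.01, against 6.32, 6.52, 6.17 and 5.99 in the other LL2 spleens, and Shmt2 was 7.12 against 5.41 to 5.94. Its proliferation mean was 8.69, against 6.94 to 7.69 in the others, its erythroid mean 8.71 against 6.93 to 8.26, and its B cell mean 7.62 against 8.52 to 8.98. Their part in the Mthfd2 value was not tested.

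The difference between the organs was tested directly. The spleen effect minus the node effect was -0.77 ± 0.19 for Psat1 (limma, adjusted p = 0.00483), below the fold threshold, on which 0.487% of genes were called, while 2.67% were lower at adjusted p under 0.05. Without the B-cell-poor nodes it was -0.48 (limma, adjusted p = 0.0687). For the other enzymes it ran from -0.51 (Phgdh) to -0.10 (Psph) with adjusted p above 0.05 each.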

How the data were processed

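Gene expression was measured on Affymetrix mouse exon arrays in 283 samples. The deposited values are log2 expression values per probe set, made by the authors with RMA, per the submitters' processing notes, with no version given; amplification used a whole-transcript kit, per the labels' protocols. RMA sets all arrays to a common scale, and array medians still ran from 5.19 to 5.66, so subtracting medians and quantile normalisation were tried as alternatives. Of 17831 probe sets, 15620 had 1 gene symbol, 1370 several and 841 none in the platform annotation. The probe set with the highest mean stood for a gene, giving 15224 genes.

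Genes above 4.3 in at least 4 of the arrays compared were tested with limma 3.58.1 in R 4.3.3 (lmFit, eBayes), with Benjamini-Hochberg adjustment over all genes tested. Tables and figures used Python 3.11.15 with pandas 2.3.3, numpy 2.4.6 and matplotlib 3.10.9. For tumours against culture, each line's tumour mean minus its single culture was averaged within families and tested against 0. All other tests used the spread of arrays within groups, so their SE and p do not measure the spread among families. The number of arrays limits the precision, and cultures have no replicate. Animals are separate mice by label, and no arrays held identical values. The tests were checked on simulated data that held no spread among families. That check therefore does not cover the test against culture where families differ. Tumour, node and spleen share an animal by label; the block by animal is an alternative, with a correlation within animals of 0.013 for nodes and spleens and 0.009 with tumours.

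All 6 enzymes are named. Listed pathway genes are named if they are the called genes with the highest or the 2 lowest differences of their list against culture, or counterparts fixed as always eligible. Genes of like pattern are the 5 with the highest Pearson r with the mean of the 6 enzymes, and the 2 for each enzyme. The enzymes and lists were chosen with earlier results of these data known. Other alternatives were no filter on low values, a filter at 5.3, the mean of a gene's probe sets, and leaving out each animal. Leaving out nodes with a B cell mean under 7 was chosen after seeing the data.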

Additional observations from a re-analysis of the deposited data

Results flagged for a closer look

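In groups of 4 to 10 arrays, 18 of 312 combinations of enzyme and group had 1 array set apart from the rest by Dixon's criterion. Chance marks about 1 in 20 groups, so this number is near what chance alone marks. Among tumours, Phgdh was 4.45 in TRAMPC2 mouse 33 (others 6.07 to 6.71) and Psat1 6.84 in Renca mouse 23 (7.37 to 7.49). In TRAMPC1 mouse 25 Psph was 8.05 (6.37 to 6.76) and Mthfd2 6.35 (6.72 to 6.86), an array whose lower glycolysis mean was 9.62, against 8.43 to 8.75 in the other TRAMPC1 tumours. Psph was 6.72 in TC1 mouse 24 (6.51 to 6.57).

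Among nodes, 4T1 mouse 36, which was poor in B cell genes, had Psat1 at 6.79 (5.67 to 5.94) and Shmt2 at 6.52 (5.37 to 5.59). The B-cell-poor node of tumour-free DBA/2J female 5 had Psph at 7.68 (5.92 to 6.33) and Mthfd2 at 5.02 (6.28 to 6.70). Phgdh was 4.66 in CT26 mouse 28, also B-cell-poor (5.38 to 5.51), and 4.42 in TRAMPC1 mouse 26 (5.32 to 5.61). Psph was 6.60 in B16F0 ATCC mouse 7 (6.03 to 6.16).

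Among spleens, Mthfd2 was 8.01 in LL2 mouse 18 (5.99 to 6.52). Phgdh was 3.80 in tumour-free Balb/C female 10 (4.45 to 4.61) and 4.58 in PAN02 mouse 5 (5.18 to 5.39). Psat1 was 4.54 in tumour-free C57Bl6j male 5 (5.52 to 5.75) and 5.50 in EL4 mouse 13 (5.75 to 5.80). Shmt2 was 5.11 in tumour-free C57Bl6j female 3 (5.51 to 5.68). The effect of a tumour on Psat1 differed between spleen and node by -0.77 on the log2 scale, and the test of that difference is given with the organ comparison above.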

How the results depend on the processing

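Single enzyme values kept their direction and their side of the threshold in 545 of the combinations of value and alternative, lost a call in 33 and turned sign in 2. With 1 animal or family left out these numbers were 6122, 22 and 7. Quantile normalisation gave 1 called enzyme, against 6, and 425 called genes, against 1846, between tumour and culture, and the cause was not tested. With medians subtracted, 1 enzyme in place of 3, Aldh1l2 counted, was called between tumour and node. Without the B-cell-poor nodes, 22 genes, against 61, were called for nodes averaged over families (19 without EL4 node 14 as well). By family there were 3 enzyme calls, against 9 with Aldh1l2 counted, and 656 gene calls, against 2290 (3 and 599). These settings turned Psph between tumour-free node and spleen to -0.00756. Spleens of C57Bl6j females alone gave 217 called genes, against 31 over all hosts.

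Leaving out 1 animal gave 33 (without tumour-free C57Bl6j female node 5) to 91 called genes for nodes, 21 to 59 (without tumour-free C57Bl6j female spleen 2) for spleens, and 0 to 1 called enzymes for related pairs. The Aldh1l2 effect in spleens ran from -0.0497 to 0.0316 and the Psph difference between tumour-free node and spleen from -0.00596 to 0.12. With the animal as a replicate block, 1193 genes were called between tumour and spleen, against 1192 without the pairing, and no enzyme call changed. The Renca node calls of Psph and Mthfd2 were lost under both other scalings (0.86 and 0.63, 0.94 and 0.77). The single culture arrays limit every comparison with culture, and their own spread was not measured.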
